A study of Mus musculus with 6 samples.

Results

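Interferon-stimulated genes are the genes that cells switch on when an interferon, a secreted alarm protein of antiviral defence, binds its receptor. The 34 genes described here were chosen by name as a standard set of such genes, with earlier results of these data known. All 34 were found by symbol among the 22838 genes of the deposited expression table. They were sorted by role into 9 sensors of nucleic acid, 10 genes that carry or restrain the interferon signal and 15 effectors. RNA came from marrow of the tibia and femur of 3-week-old mice on a mixed 129/C57BL/6 background, with 3 wild-type libraries and 3 libraries from Cbx2-/- mice, which lack functional Cbx2, a chromodomain subunit of the Polycomb repressive complexes that keep genes silent. The labels give mean body weights of 12.3 g for the wild-type group and 4.0 g for the Cbx2-/- group, and do not describe the Cbx2 allele or the sex of the animals. Levels are FPKM (fragments scaled to transcript length and to the mapped fragments of the library), and marrow is a mixture of cells, so fewer cells of a type and less RNA per cell cannot be told apart.

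Type I interferons bind a receptor made of Ifnar1 and Ifnar2, whose kinases activate the transcription factor STAT2. It acts with IRF9 in the complex ISGF3, which binds a DNA element called the interferon-stimulated response element in the promoters of its targets. Even without infection, low tonic interferon signalling keeps many of these genes at a basal level, and in marrow interferon is known to act on blood stem cells and on B cell development.

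That element can be read in the promoters of the genes themselves. RefSeq promoter windows (GRCm38.p6) of 300 bases, from 250 before to 50 after the start site, were found for 25 of the 34 genes. No window was matched for Dhx58, Zbp1, Oas2, Usp18, Parp14, Mx1, Mx2, Rtp4 and Ifi27. The stretches below are the 160 bases just before the start site of 6 genes chosen because they hold a copy of the element and recur in the results, 5′ to 3′ on the gene's strand. Capitals mark the core of the element, GAAA, any 2 bases and GAAA, or on the other strand TTTC, any 2 bases and TTTC, including copies that overlap.
Isg15 (chr4:156200819-156200978, minus strand): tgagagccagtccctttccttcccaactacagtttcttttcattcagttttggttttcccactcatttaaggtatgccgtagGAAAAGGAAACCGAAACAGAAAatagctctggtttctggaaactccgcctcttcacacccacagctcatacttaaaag
Rsad2 (chr12:26456453-26456612, minus strand): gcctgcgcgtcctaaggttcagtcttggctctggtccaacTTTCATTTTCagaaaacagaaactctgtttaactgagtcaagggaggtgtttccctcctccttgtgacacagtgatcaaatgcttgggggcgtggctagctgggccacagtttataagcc
Oas3 (chr5:120777660-120777819, minus strand): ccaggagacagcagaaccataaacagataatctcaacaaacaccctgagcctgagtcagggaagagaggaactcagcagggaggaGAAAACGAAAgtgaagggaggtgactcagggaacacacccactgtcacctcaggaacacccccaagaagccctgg
Ifit1 (chr19:34640729-34640888, plus strand): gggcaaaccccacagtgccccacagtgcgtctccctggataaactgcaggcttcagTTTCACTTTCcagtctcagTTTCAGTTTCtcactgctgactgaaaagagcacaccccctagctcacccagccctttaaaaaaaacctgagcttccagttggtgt
Ifit3 (chr19:34583369-34583528, plus strand): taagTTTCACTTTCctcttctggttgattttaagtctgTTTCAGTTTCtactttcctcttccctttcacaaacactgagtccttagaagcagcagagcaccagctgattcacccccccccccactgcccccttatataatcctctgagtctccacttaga
Bst2 (chr8:71537473-71537632, minus strand): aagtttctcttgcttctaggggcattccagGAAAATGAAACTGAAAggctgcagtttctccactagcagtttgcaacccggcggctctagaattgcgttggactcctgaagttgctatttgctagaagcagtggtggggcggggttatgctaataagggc

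The core was present in a window of 13 of the 25 genes, 52%, against 3.99% of the 27025 genes in the promoter table. Isg15 held 3 overlapping copies between 78 and 57 bases before its start, while Ifit1 and Ifit3 each held a TTTCACTTTC copy followed by a TTTCAGTTTC copy. The motif of the gamma-activated site, TTCNNNGAA, which reads the same on both strands, stood in 7 of the 25 genes, 28%, and in 9.55% of all genes in the table. By role, the response element core was found in 5 of 6 sensors, 3 of 8 signalling genes and 5 of 11 effectors with a window. The core stood in 4 of the 9 genes with a window that fell in Cbx2-/- marrow (44.4%) and in 9 of the 15 that did not pass (60%). Irf9, Irf7, Herc6, Cmpk2 and Xaf1, which fell, had no copy in their windows. The gamma-activated motif stood in 0 of those 9 genes and in 7 of those 15 (46.7%). Such a match is a description of letters and does not show binding.

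In the 6 libraries, between 16140 and 16574 genes had a value above 0, and summed FPKM ranged from 599601 to 741192. Relative depth, read from the commonest ratio of low values, was 0.896 to 1.24 times that of wild-type replicate 1. Cbx2 itself was at 2.75 to 3.83 FPKM in wild-type and 1.87 to 2.11 FPKM in Cbx2-/- libraries. Cbx2-/- replicates 1 and 2 carried skeletal muscle transcripts (8 marker genes summing to 409 and 454 FPKM, against 13.8 to 34 FPKM in the other 4 libraries), and Cbx2-/- replicate 3 correlated least with its group. Wild-type replicate 1 and Cbx2-/- replicate 1 had Y-linked transcripts and almost no Xist, and the other 4 libraries had the reverse. Marrow markers were abundant, with 10 neutrophil genes summing to 38170 to 84540 FPKM. Of 12006 genes tested, 48.6% of the calls were lower in Cbx2-/- marrow, and 62.2% when values were rescaled without haemoglobin transcripts.

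Of the interferon-stimulated genes, 13 were lower in Cbx2-/- marrow and none passed as higher. Isg15, Usp18, Rsad2 and Oas3 fell about 3.8-fold to 5.83-fold, and Irf9, Irf7, Herc6, Ifit1, Rtp4, Ifi27, Xaf1, Oas2 and Cmpk2 fell by smaller factors. These 13 were 38.2% of the 34 genes, while 0 rose, 19 did not pass the test and 2 (Mx2 and Ifi44) were under the filter of at least 1 FPKM in at least 3 libraries. Over all tested genes, 8.31% were called lower and 8.8% higher (limma on log2(FPKM + 1), Benjamini-Hochberg adjusted p under 0.05). At an unadjusted limma p under 0.05, 23 of the 32 tested passed and all 23 had a lower mean. By that measure 3900 of the 12006 tested genes passed, in either direction. The mean of 32 of the 34 was lower in Cbx2-/- marrow, and the exceptions were Ifit2 and Samd9l. A negative log2 difference was seen in 48.2% of all tested genes. In 23 of the 34, all 3 Cbx2-/- libraries lay below all 3 wild-type libraries, an order seen in 18.2% of tested genes, and in 0 did all lie above, the order of 21.4%. With no filter on low values, 12 of all 34 were called lower, where 5.03% of 18108 genes were. The median difference over all 34 was -0.67 (log2), against 0.02 for tested genes. Because the set was chosen with earlier results of these data known, these shares are a description and not an independent test.

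**Figure D1:**
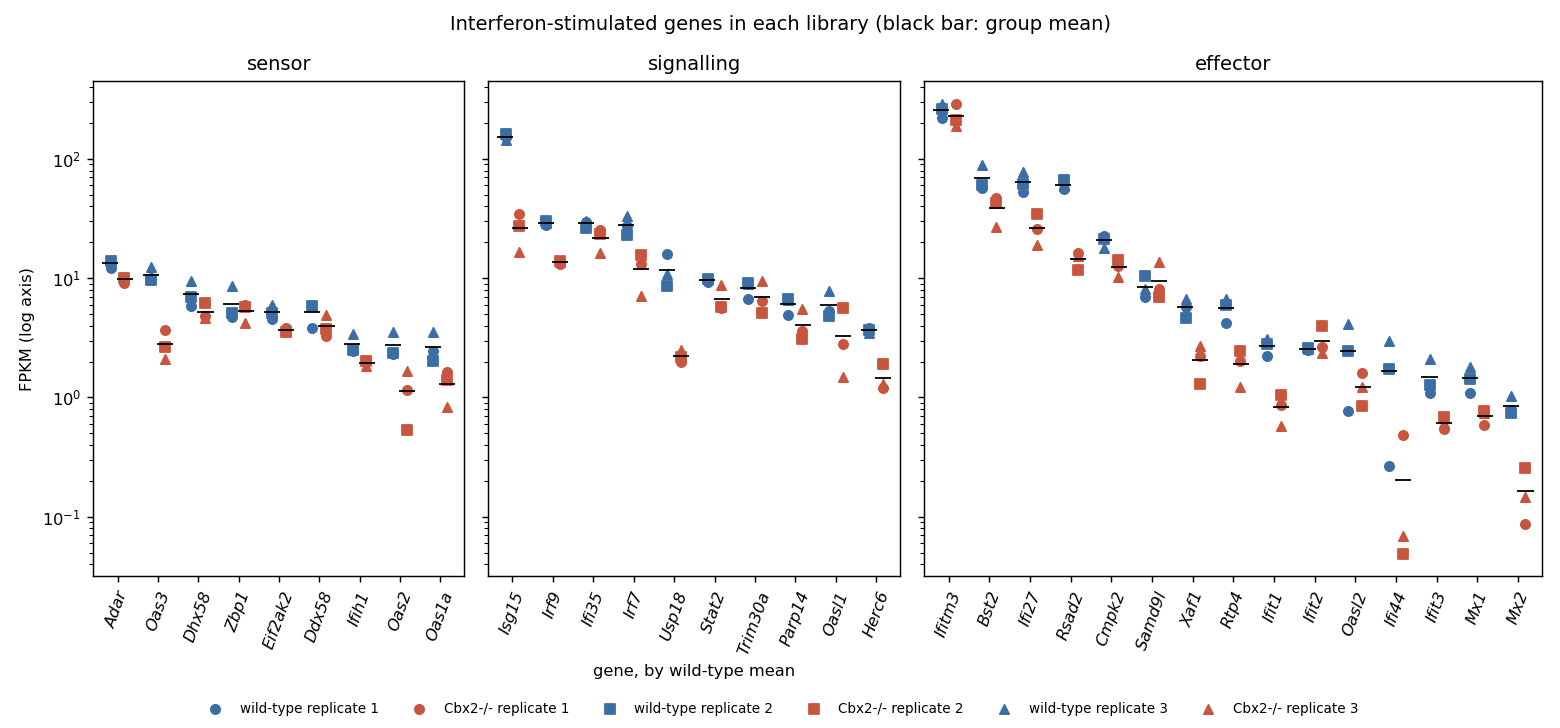
FPKM of each of the 34 interferon-stimulated genes in each library (log axis), by role and ordered by wild-type mean; blue symbols are wild-type, red symbols Cbx2-/-, symbol shape the replicate, and black bars the group means. The red symbols of Isg15, Rsad2, Oas3 and Usp18 lie well below the blue ones, while those of Ifitm3, Ifit2 and Samd9l overlap them.

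Among the signalling genes, Isg15 and Usp18 had the largest differences. Isg15 (chromosome 4, 156199424 to 156200818, minus strand) encodes a ubiquitin-like protein that is attached to other proteins after interferon exposure. Its level was 153, 161 and 144 FPKM in wild-type marrow and 34.6, 27.5 and 16.5 FPKM in Cbx2-/- marrow. The lowest wild-type library stood at over 4 times the highest Cbx2-/- library, and the mean fell 5.83-fold, a difference in log2(FPKM + 1) of -2.56 ± 0.26 (SE, n = 3 each, limma adjusted p = 0.00117). Usp18, on chromosome 6, encodes the protease that removes ISG15 from proteins and also blocks the type I receptor. It was at 15.9, 8.56 and 10.8 FPKM in wild-type and at 2, 2.18 and 2.5 FPKM in Cbx2-/- libraries, with no overlap, and fell 5.29-fold (limma adjusted p = 0.00153). Herc6, the main ISG15 ligase of mouse cells, was at 3.81, 3.70 and 3.46 FPKM and at 1.19, 1.92 and 1.28 FPKM. The wild-type values lay close together and all above the Cbx2-/- values, a 2.49-fold fall (limma adjusted p = 0.0068).

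The other enzymes of ISG15 conjugation lie outside the set of 34 and are given here after their values were seen. Uba7, the activating enzyme, fell 1.79-fold, from 35.9 ± 4.06 to 20.1 ± 2.37 FPKM (SD, n = 3 each, limma adjusted p = 0.0125). That call was lost without wild-type replicate 2 (adjusted p = 0.0606), wild-type replicate 3 (0.0627) or Cbx2-/- replicate 1 (0.053). Ube2l6, the conjugating enzyme, was at 463 ± 22.2 and 389 ± 141 FPKM and did not pass (limma adjusted p = 0.497), with Cbx2-/- replicate 3 above every wild-type library. Without that library it was called lower (adjusted p = 0.0438).

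The genes of ISGF3 and Irf7 differed in how far they moved. Irf9, the DNA-binding subunit of ISGF3, was at 27.7, 30.3 and 28.9 FPKM in wild-type and 13.2, 14.0 and 13.8 FPKM in Cbx2-/- libraries. Both groups were tight and far apart, and the gene fell 2.12-fold (log2 difference -1.03 ± 0.13, SE, limma adjusted p = 0.00241). Stat2, its partner subunit, was at 9.23, 9.91 and 9.91 FPKM and at 5.59, 5.70 and 8.83 FPKM. Cbx2-/- replicate 3 was near the wild-type range, and Stat2 did not pass (limma adjusted p = 0.0942), although it was called lower without that library (adjusted p = 0.00311). Irf7, the factor that amplifies interferon production, was at 27.2, 22.9 and 33.1 FPKM and at 13.1, 15.8 and 7.14 FPKM. Its groups did not overlap and it fell 2.31-fold (limma adjusted p = 0.0235). The call of Irf7 was lost without wild-type replicate 1, 2 or 3 or Cbx2-/- replicate 1 (adjusted p = 0.0827, 0.0568, 0.0984 and 0.053), and also under a fit of all expressed genes without a filter (0.053) or with the replicate number as a block (0.0528).

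The remaining signalling genes did not pass. Ifi35, an interferon-induced leucine zipper protein gene, was at 29.7, 26.6 and 30.2 FPKM in wild-type and 25.2, 23.4 and 16.2 FPKM in Cbx2-/- libraries. All Cbx2-/- values were below the wild-type values, but replicates 1 and 2 only slightly (limma adjusted p = 0.162). Oasl1, which restrains translation of Irf7 messenger RNA, had means of 5.96 ± 1.60 and 3.29 ± 2.11 FPKM (SD, n = 3 each) with overlapping groups. Parp14, an ADP-ribosyltransferase gene, had means of 6.03 and 4.06 FPKM, and Trim30a, a regulator of innate signalling, 8.31 and 7.01 FPKM. In both, Cbx2-/- replicate 3 held the highest value of its group. Parp14 was called lower without that library (limma adjusted p = 0.012), and Oasl1 without Cbx2-/- replicate 2 (0.0215). With both muscle-bearing libraries out, the differences of Oasl1 and Ifi35 were -1.47 and -0.79 (log2). These rest on Cbx2-/- replicate 3 alone, the lowest of its group for both genes. Of the 10 signalling genes, 5 fell (50%), 0 rose and 5 did not pass, with a median difference of -0.86 (log2). Among all tested genes, 8.31% were lower and 8.8% higher.

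**Figure D2:**
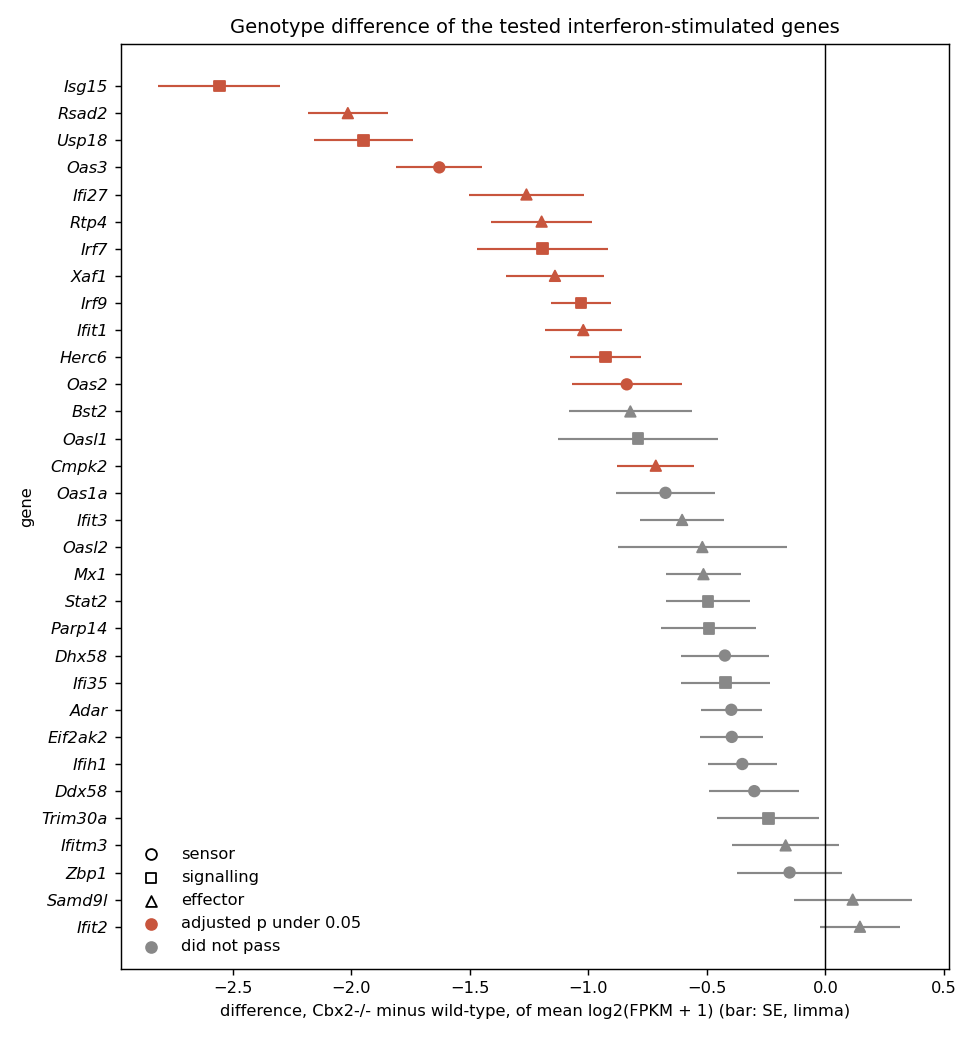
Difference between Cbx2-/- and wild-type marrow in mean log2(FPKM + 1) for the 32 tested genes, with the SE of the limma fit as bars; circles are sensors, squares signalling genes and triangles effectors, red for an adjusted p under 0.05 and grey for genes that did not pass. The values run from -2.56 for Isg15 to 0.15 for Ifit2, and only those of Ifit2 and Samd9l are above 0.

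Among the effectors, Rsad2 fell most. Rsad2 (chromosome 12, 26442746 to 26456452, minus strand) encodes viperin, a radical-SAM enzyme that makes a chain-terminating nucleotide. It was at 56.3, 67.1 and 59.4 FPKM in wild-type and 16.2, 11.7 and 15.3 FPKM in Cbx2-/- libraries. The groups were widely separated, a 4.23-fold fall (log2 difference -2.01 ± 0.17, SE, limma adjusted p = 0.000615). Cmpk2, a mitochondrial nucleotide kinase gene, lies beside Rsad2 in the opposite orientation (chromosome 12, 26469204 to 26479837, plus strand). Its values were 22.7, 21.5 and 18.1 FPKM and 12.5, 14.1 and 10.3 FPKM. It fell 1.69-fold (limma adjusted p = 0.0221), without overlap, but the call was lost without wild-type replicate 1, 2 or 3 or Cbx2-/- replicate 1 (adjusted p = 0.1, 0.0913, 0.0502 and 0.067).

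The Ifit genes on chromosome 19 encode proteins that bind foreign RNA, and they did not move together. Ifit1 was at 2.24, 2.79 and 3.11 FPKM in wild-type and 0.869, 1.05 and 0.577 FPKM in Cbx2-/- libraries. It fell 3.26-fold with separate groups (limma adjusted p = 0.0061). Ifit3 was at 1.48 ± 0.525 and 0.612 ± 0.0716 FPKM (SD, n = 3 each), also separate, but just missed the threshold (limma adjusted p = 0.053). It was called lower in 4 of the alternative fits. Ifit2 was at 2.5, 2.59 and 2.57 FPKM and at 2.67, 3.94 and 2.35 FPKM, a higher mean with overlapping groups (limma adjusted p = 0.613). Reads of Ifit3 may be shared with a close paralog, so its value is uncertain.

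Further effectors fell between 2.42-fold and 2.97-fold. Rtp4, whose protein restrains innate signalling and viral replication, was at 4.18, 5.96 and 6.74 FPKM in wild-type and 2.03, 2.43 and 1.23 FPKM in Cbx2-/- libraries, a 2.97-fold fall (limma adjusted p = 0.00943). Xaf1, a pro-apoptotic gene, was at 5.70, 4.67 and 6.71 FPKM and at 2.22, 1.29 and 2.71 FPKM, 2.75-fold lower (limma adjusted p = 0.0101). Ifi27, which encodes a small hydrophobic membrane protein, was at 52.4, 61.7 and 77.8 FPKM and at 25.9, 34.5 and 19.1 FPKM, 2.42-fold lower (limma adjusted p = 0.0121). None of the groups of these 3 genes overlapped. The call of Xaf1 was lost without wild-type replicate 3 (adjusted p = 0.0515), and that of Ifi27 without wild-type replicate 2 or 3 (adjusted p = 0.0522 and 0.0577). Ifi27 overlaps Ifi27l2a in the deposited loci, so their values are uncertain.

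The most abundant effectors did not pass. Ifitm3, which blocks virus entry at endosomes, was at 219, 261 and 289 FPKM in wild-type and 292, 212 and 189 FPKM in Cbx2-/- libraries, with overlapping groups (limma adjusted p = 0.668). Bst2, which encodes tetherin and is also a surface protein of plasmacytoid dendritic cells, was at 56.7, 60.3 and 89.6 FPKM and at 46.7, 42.5 and 26.9 FPKM. Its groups were separate but spread, and the adjusted p was 0.0672 (limma). It was called lower in all 3 rescaled fits (adjusted p = 0.0248 to 0.0496). With both muscle-bearing libraries out, its difference was -1.295 (log2), resting on Cbx2-/- replicate 3 alone, the lowest of its group. Samd9l, a translation inhibitor gene, was at 8.51 ± 1.76 and 9.56 ± 3.61 FPKM (SD, n = 3 each), with Cbx2-/- replicate 3 highest of all 6 libraries at 13.7 FPKM.

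The least abundant effectors were near the limit of what the filter kept. Mx1 was at 1.44 ± 0.352 and 0.699 ± 0.1 FPKM (SD, n = 3 each, limma adjusted p = 0.0602, and 0.0405 without Cbx2-/- replicate 3), and many laboratory strains carry a defective Mx1. Mx2, its neighbour on chromosome 16, was under the filter at 0.778, 0.742 and 1.02 FPKM in wild-type and 0.0861, 0.257 and 0.145 FPKM in Cbx2-/- libraries. Without a filter Mx2 was called lower (limma adjusted p = 0.0091). Ifi44 ranged from 0.268 to 2.97 FPKM in wild-type and from 0.0486 to 0.488 FPKM in Cbx2-/- libraries, with overlap through wild-type replicate 1. Oasl2, an oligoadenylate synthetase-like gene, had overlapping groups too, at 2.45 ± 1.68 and 1.22 ± 0.369 FPKM. Ifit3 and Mx1 passed the filter through the wild-type libraries alone. Of the 15 effectors, 6 fell, 0 rose, 7 did not pass and 2 were not tested, and the median difference over all 15 was -0.72 (log2). The 6 were 46.2% of the 13 tested, where 8.31% of all tested genes were lower and 8.8% higher.

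Among the sensors, the oligoadenylate synthetases changed most. These enzymes bind double-stranded RNA and make a second messenger that activates RNase L, and Oas2, Oas3 and Oas1a lie together on chromosome 5. Oas3 (120753098 to 120777661, minus strand) was at 10, 9.64 and 12.4 FPKM in wild-type and 3.67, 2.65 and 2.1 FPKM in Cbx2-/- libraries. It fell 3.8-fold (log2 difference -1.63 ± 0.18, SE, limma adjusted p = 0.0017), with a wide gap between the groups. Oas2 was at 2.29, 2.37 and 3.55 FPKM and at 1.16, 0.534 and 1.67 FPKM. It fell 2.44-fold just under the threshold (limma adjusted p = 0.0439). That call was lost without any wild-type replicate (adjusted p = 0.0956, 0.102 and 0.153 without replicate 1, 2 and 3) and without Cbx2-/- replicate 1 or 2 (0.101 and 0.0793). It was also lost with a pseudocount of 0.1 (0.0564), no filter (0.0816), values rescaled without haemoglobin (0.0981), a covariate for chromosomal sex (0.0707) and both muscle-bearing libraries left out (0.134). Oas1a was at 2.67 ± 0.804 and 1.29 ± 0.412 FPKM, separate but not passing (limma adjusted p = 0.061), and is uncertain because its paralogs are close in sequence. With both muscle-bearing libraries out, its difference was -0.98 (log2), resting on Cbx2-/- replicate 3 alone, the lowest of its group.

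The other sensors had smaller differences, none of which passed. Adar encodes the RNA-editing enzyme that keeps self RNA from being sensed. It was the most abundant sensor, at 12.1, 13.9 and 13.9 FPKM in wild-type and 9.14, 10.1 and 10.3 FPKM in Cbx2-/- libraries. All Cbx2-/- values were below the wild-type ones, 1.35-fold lower in the mean (limma adjusted p = 0.0707), and Adar was called lower without Cbx2-/- replicate 3 (adjusted p = 0.0277). Ifih1, the gene of the long double-stranded RNA sensor MDA5, was at 2.79 and 1.95 FPKM, and Eif2ak2, the gene of the translation-blocking kinase PKR, was at 5.18 and 3.68 FPKM, both with separate groups. Ddx58 (RIG-I) was at 5.16 and 3.99 FPKM, Dhx58 (LGP2) at 7.40 and 5.20 FPKM and Zbp1, a sensor of Z-form nucleic acid, at 6.11 and 5.27 FPKM, all with overlap. Of the 9 sensors, 2 fell (22.2%), 0 rose and 7 did not pass, with a median difference of -0.40 (log2). Among all tested genes, 8.31% were lower and 8.8% higher.

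Of the 13 falls, 8 were called in each of the 19 alternative fits in which the gene was tested: Isg15, Usp18, Rsad2, Oas3, Irf9, Herc6, Ifit1 and Rtp4. Herc6, Ifit1 and Rtp4 were not tested under the filter of 5 FPKM. Without wild-type replicate 3, 8 genes fell (4.51% of tested genes were then lower), and without Cbx2-/- replicate 3, 18 fell (14.3%). With both muscle-bearing Cbx2-/- libraries left out, 16 fell and 1, Samd9l, rose, where 22.6% of tested genes were lower and 17% higher. That fit takes the spread of the single Cbx2-/- library left to be that of the wild-type group.

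The summed level of the set separated the genotypes, and the libraries of a group differed in its members. The 34 genes summed to 765, 843 and 923 FPKM in wild-type replicates 1, 2 and 3 and to 555, 473 and 401 FPKM in Cbx2-/- replicates 1, 2 and 3. By role, the sum of the signalling genes was the steadiest in wild-type marrow, at 283 to 284 FPKM, against 82.6 to 108 FPKM in Cbx2-/- marrow. Single genes in that sum varied more, such as Usp18 at 8.56 to 15.9 FPKM in wild-type libraries. Wild-type replicate 1 had the lowest value of its group for 23 of the 34 genes, and replicate 3 the highest for 22. Among Cbx2-/- libraries, replicate 3 was lowest for 16 genes and highest for 9. Each Cbx2-/- library had 28 or 29 genes below every wild-type library and 1 or 2 above. The share of all tested genes with that order in a single library was not counted, so these counts have no background here.

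Interferon genes themselves were barely present. Of 21 interferon ligand genes, 19 were listed at 0 in all libraries, and the highest value of Ifng or Ifnz, the others, was 0.223 FPKM. None could be tested. Ifnar1, a chain of the type I receptor, was at 8.07, 8.57 and 8.48 FPKM in wild-type and 7.44, 7.67 and 9.85 FPKM in Cbx2-/- libraries, with overlap (limma adjusted p = 0.955). Ifnar2 was at 46.9 ± 6.35 and 49.6 ± 5.62 FPKM (SD, n = 3 each, limma adjusted p = 0.785). The receptor of interferon gamma differed: Ifngr1, its ligand-binding chain, was at 48.9, 52.6 and 51.6 FPKM and at 101, 100 and 107 FPKM. It rose 2.01-fold with tight groups (limma adjusted p = 0.00416), while Ifngr2 was at 24 ± 1.55 and 31.4 ± 3.03 FPKM and did not pass (limma adjusted p = 0.116).

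Of the 11 receptor, kinase and STAT genes outside the set, 2 rose, Ifngr1 and Stat3. They were 18.2% of the 11 tested, against 8.8% higher over all genes. Stat3, which serves other cytokine receptors, rose 1.74-fold (limma adjusted p = 0.0448), a call lost without wild-type replicate 1, 2 or 3 or Cbx2-/- replicate 1 (adjusted p = 0.0881 to 0.145). It was also lost under median-ratio scaling (0.063), quantile normalization (0.0852), no filter (0.072) and the sex covariate (0.0743). Of 18 upstream sensing genes, 1 fell, 2 rose, 14 did not pass and 1 was not tested. With 5.88% of the 17 tested lower and 11.8% higher, these counts were near those over all genes (8.31% and 8.8%). Mavs, the mitochondrial adaptor of RIG-I and MDA5, fell 1.64-fold, from 19.7 ± 2.71 to 12 ± 1.41 FPKM. Myd88, the Toll-like receptor adaptor, rose 1.52-fold, and Ikbke, a kinase that acts beside TBK1, rose 1.99-fold. The call of Mavs was lost without wild-type replicate 1 or 2 or Cbx2-/- replicate 1 (adjusted p = 0.0939 to 0.115). That of Ikbke was lost without any wild-type replicate or Cbx2-/- replicate 1 (0.0529 to 0.127), and that of Myd88 in these fits and without Cbx2-/- replicate 2 (0.0519 to 0.115). Rescaling without haemoglobin ended the calls of Stat3, Mavs, Ikbke and Myd88 (adjusted p = 0.0527 to 0.154), and the replicate block those of Stat3, Mavs and Myd88 (0.0628 to 0.0806). With no filter the call of Ikbke was lost (0.0676), and with the sex covariate that of Mavs (0.0503). Of 11 negative regulators, only Socs3, an inhibitor of cytokine receptor signalling, passed, and it rose 2.45-fold, from 4.28 ± 1.35 to 10.5 ± 1.41 FPKM (limma adjusted p = 0.00824). That 1 gene was 9.09% of the 11 tested, near the 8.8% higher over all genes.

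Interferon-stimulated genes outside the set had calls in both directions. Of a further list of 60 genes induced by type I interferon, 56 were in the table and 49 were tested, of which 8 fell, 4 rose and 37 did not pass, with a median of -0.07 (log2). The 8 were 16.3% of those tested, against 8.31% lower over all genes, and the 4 were 8.16%, near the 8.8% higher over all genes. Nt5c3, a pyrimidine nucleotidase gene that is also abundant in red cell precursors, fell 2.67-fold, from 153 ± 17.8 to 57.4 ± 2.93 FPKM (SD, n = 3 each). Isg20, an exonuclease gene, was at 490, 432 and 419 FPKM in wild-type and 150, 164 and 170 FPKM in Cbx2-/- libraries, a 2.77-fold fall with no overlap (limma adjusted p = 0.00221). Oas1b, a further gene of the synthetase family, fell 2.46-fold, from 5.29 ± 0.761 to 2.15 ± 0.229 FPKM.

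The Ifitm family split. Ifitm6, a myeloid member, was at 329, 290 and 304 FPKM in wild-type and 1364, 852 and 887 FPKM in Cbx2-/- libraries, a 3.36-fold rise (limma adjusted p = 0.00377). Ifitm1 and Ifitm2, named after their values were seen, rose 3.31-fold and 2.24-fold (limma adjusted p = 0.0279 and 0.0418). Both calls were lost without any wild-type replicate (adjusted p = 0.0627 to 0.15), and that of Ifitm2 also without Cbx2-/- replicate 1 or 2 (0.112 and 0.071) and with the replicate block (0.0574). With no filter neither passed (0.0623 and 0.0754). Ifitm3 lies in the same cluster on chromosome 7 and did not pass, as given above. The rises of that list were not confined to the Ifitm family. Slfn4, also named after its values were seen, rose 2.11-fold, from 17.7 ± 1.01 to 37.4 ± 7.03 FPKM (SD, n = 3 each, limma adjusted p = 0.00715). Its call was not followed through the alternative fits. Among 35 genes tied to interferon gamma, 2 fell, 1 rose, 26 did not pass and 6 were not tested. Those shares of the 29 tested, 6.9% and 3.45%, were below the 8.31% and 8.8% over all genes. The 2 that fell, Irgm2 (58199618 to 58222782) and Igtp (58199556 to 58207591), overlap on the plus strand of chromosome 11, so their values are uncertain. The immunity-related GTPase genes Irgm2 and Igtp fell 2.89-fold and 2.21-fold (limma adjusted p = 0.00918 and 0.0084), and Iigp1, of the same family, rose from 1.71 ± 0.484 to 3.39 ± 0.644 FPKM, a call lost when any library other than Cbx2-/- replicate 3 was left out (adjusted p = 0.0522 to 0.129). It was also lost with no filter (0.0682), without haemoglobin (0.0723) and with both muscle-bearing libraries out (0.0568).

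**Figure D3:**
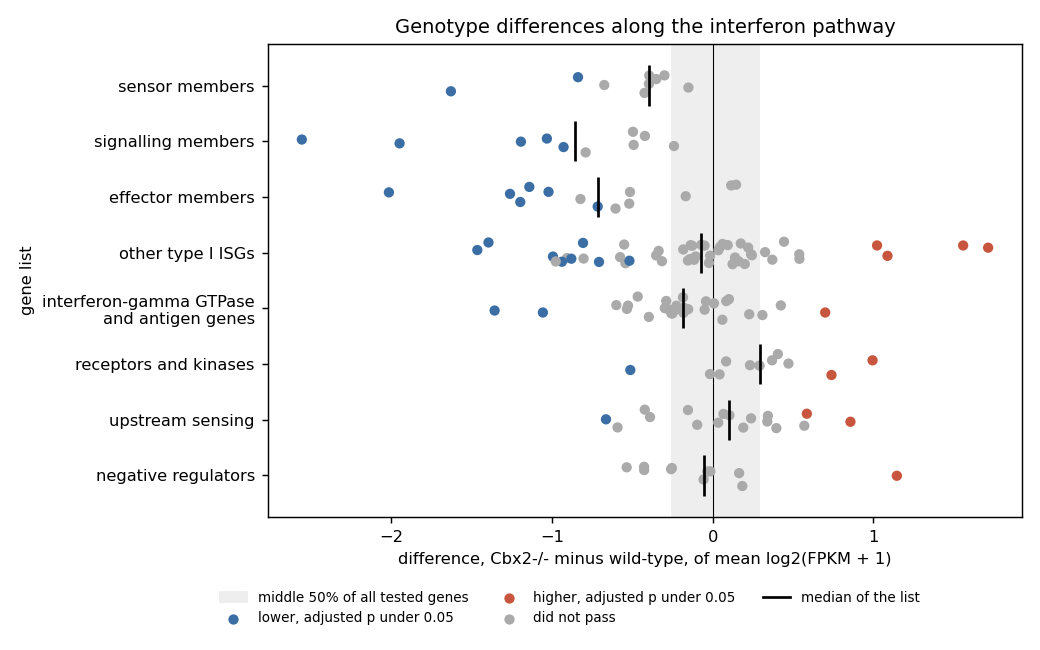
Difference between Cbx2-/- and wild-type marrow in mean log2(FPKM + 1) for each tested gene of the 3 roles and of the other lists of the interferon pathway; blue points passed as lower, red as higher, grey did not pass, black ticks are medians of the tested genes, and the band is the middle 50% of all tested genes. The medians of the 3 roles are -0.40, -0.86 and -0.72, and that of receptors and kinases is 0.29.

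Cell type markers differed between the genotypes in both directions, and their part in the falls was not tested. Over all tested genes, 8.31% were lower and 8.8% higher. B cell precursor markers were lower in 11 of 11 genes, summing to 996 to 1251 FPKM in wild-type and 109 to 210 FPKM in Cbx2-/- libraries, and erythroid markers in 8 of 10, summing to 3026 to 3670 and 1326 to 2121 FPKM. Among the B cell precursor markers, Rag1 and Rag2 passed the filter through the wild-type libraries alone. Of 10 plasmacytoid dendritic cell markers, the type that makes most type I interferon, 8 were tested. Of these, 4 were lower (50%) and 0 higher, and the 10 had sums of 338 to 457 and 107 to 147 FPKM. The other 4 tested did not pass. Cox6a2 had a higher mean in Cbx2-/- marrow (7.24 and 11.7 FPKM), and Pld4 (63 and 63.7 FPKM) and Tcf4 (5.57 and 5.31 FPKM) hardly differed. Pacsin1 had means of 1.56 and 0.983 FPKM. Ly6d, which early lymphoid cells also express, took a mean of 289 FPKM of the wild-type sum and 36.2 FPKM of the Cbx2-/- sum. Siglech, a defining marker, was at 5.54, 2.35 and 4.92 FPKM and at 1.04, 1.82 and 1.39 FPKM. Klk1, one of the 4 lower, passed the filter through the wild-type libraries alone. It was listed at 0 in Cbx2-/- replicate 3, and Cd300c at 0 in Cbx2-/- replicate 1.

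Macrophage, endothelial, neutrophil and monocyte markers had higher calls, the opposite direction to the interferon-stimulated genes. Macrophage markers were higher in 6 of 11 genes, summing to 589 to 679 FPKM in wild-type and 862 to 1240 FPKM in Cbx2-/- libraries, and endothelial markers in 6 of 10, at 99.5 to 106 and 177 to 219 FPKM. Neutrophil and monocyte markers were each higher in 3 of 10 genes, with neutrophil sums of 38170 to 43300 and 55240 to 84540 FPKM and monocyte sums of 444 to 495 and 719 to 748 FPKM. In each of these 2 lists the other 7 did not pass. They include Ly6c2, the largest part of the monocyte sums, with means of 290 and 450 FPKM. The monocyte marker Cx3cr1 had the other direction, with means of 3.99 and 2.39 FPKM and no overlap, and did not pass. Of 9 T and NK cell markers in the table, 8 were tested, of which 2 (Gzma and Klre1) were lower, 0 were higher and 6 did not pass. Klre1 passed the filter through the wild-type libraries alone. Cd3e, Cd3g and Cd8a had all 3 Cbx2-/- libraries above all 3 wild-type libraries. The median difference of the 8 tested was 0.29 (log2), and the sums of the 9 overlapped, at 16.7 to 26.2 FPKM in wild-type and 19.8 to 36.7 FPKM in Cbx2-/- libraries.

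**Figure D4:**
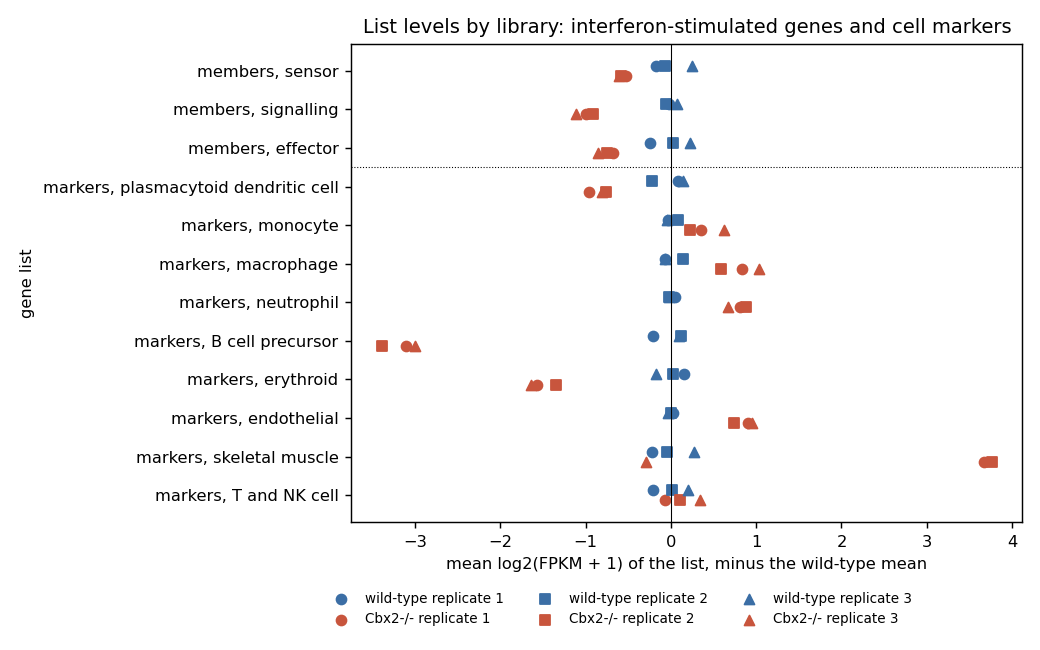
Mean log2(FPKM + 1) of each list in each library, minus its wild-type mean; blue symbols are wild-type, red symbols Cbx2-/-, and symbol shape the replicate, with the 3 roles of interferon-stimulated genes above the dotted line and cell markers below. The 3 Cbx2-/- libraries lie together and below wild-type for all 3 roles, while skeletal muscle markers separate Cbx2-/- replicates 1 and 2 from replicate 3.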

How the data were processed

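FPKM values for 22838 genes in 6 bone marrow libraries were taken as the authors deposited them. Per the submitters' processing notes, FastQC 0.11.5, TopHat2 2.1.0, Cufflinks 2.2.1 and mm10 were used, in roles that those notes do not state. The strand setting, annotation and read totals were not given in the sources used here. FPKM is relative, so a transcript's value falls when others take more of the reads. Depth could be read only as the ratio between libraries of values under 0.15 FPKM.

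Values were analysed as log2(FPKM + 1), which understates changes of low genes. The 12006 genes reaching 1 FPKM in at least 3 libraries were fitted with limma 3.58.1 (R 4.3.3, trended empirical Bayes, two-sided). Adjustment was by Benjamini-Hochberg over these genes, with calls at an adjusted p under 0.05. Folds are ratios of mean FPKM. The fit was tested on simulated data. The labels name 3 mice per genotype.

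The members, roles and other lists were chosen with earlier results of these data known. Given with values in every library were members that passed, the 2 most abundant of each role, and Stat2, Irf9 and Irf7. Of each other list, up to 4 genes that passed with the lowest adjusted p were named, with Ifnar1, Ifnar2, Ifngr1 and Ifngr2. A further gene of that rule is not reported here. Ifitm1, Ifitm2, Uba7, Ube2l6 and Slfn4 were named after their values were seen. Positions of 55 named genes (Slfn4 not among them), 1-based, were read from GENCODE vM21 on GRCm38, and all 55 overlapped the deposited locus. Alternatives were other pseudocounts, filters, scalings, limma settings, a replicate block, a sex covariate and left-out libraries. Figures were drawn with matplotlib 3.10.9.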

Additional observations from a re-analysis of the deposited data

How the results depend on the processing

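Of 992 values for 53 tested named genes, 879 kept direction and call, 82 lost the call, 19 gained it and 12 changed sign, the last in genes without a call. Slfn4 was not among these 53. A filter of 5 FPKM, which leaves 19 members tested, gave 8 members lower, with 1 sensor and 3 effectors. Sensors fell to 1 call with a pseudocount of 0.1, with no filter, without haemoglobin and with the sex covariate, and to 1 to 3 when single libraries were left out. In those leave-one-out fits, members lower ranged from 8 to 18, effectors from 3 to 8, signalling genes from 4 to 7, receptors and kinases from 1 to 3, upstream sensing from 0 (5 to 7 genes had an unadjusted limma p under 0.05) to 6, other type I genes from 6 to 19 and interferon gamma genes from 2 to 5. Over all genes they gave 475 to 1719 lower and 367 to 2069 higher calls, against 998 and 1057. Rescaling without haemoglobin gave 598 higher calls, 1 receptor or kinase gene and 0 upstream sensing genes (3 at an unadjusted limma p under 0.05). Receptors and kinases also had 1 call with no filter and with the sex covariate. The fit given next leaves a single Cbx2-/- library. Its counts for the other lists take both directions together and do not show that a list changed more than other genes. With both muscle-bearing libraries out there were 2714 lower and 2047 higher calls, 1 member higher, and 7 receptor and kinase, 7 upstream sensing, 6 negative regulator and 13 interferon gamma genes changed.

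The replicate numbers did not pair the libraries: same-numbered deviations correlated at 0.194, -0.179 and -0.103, and not every library correlated best with its own number. With the number as a replicate block, 12 members were lower, 734 genes lower and 634 higher, with 1 receptor or kinase and 1 upstream sensing gene changed.

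With single libraries left out, the log2 difference spanned 0 for Zbp1 (-0.293 to 0.0801, above 0 without wild-type replicate 3), Ifit2 (-0.0199 to 0.261, below 0 without Cbx2-/- replicate 2), Samd9l (-0.148 to 0.298, below 0 without wild-type replicate 1 or Cbx2-/- replicate 3), Ifnar1 (-0.131 to 0.0503, above 0 without Cbx2-/- replicate 1 or 2) and Ifnar2 (-0.00943 to 0.181, below 0 without wild-type replicate 2). Without both muscle-bearing libraries the sign changed for Trim30a (0.173), Ifit2 (-0.0851), Ifnar1 (0.212), Ifnar2 (-0.0778) and Ube2l6 (0.201). The cause of these changes was not tested. With 3 libraries a group, values under 1 FPKM, as for Mx2 and Ifi44, rest on few reads. The filter on a mean of 1 FPKM was added after seeing the data and left the member count at 13.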
